A study of Mus musculus with 6 samples.

Results

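The matrix metalloproteinases (MMPs), the ADAM and ADAMTS proteases and the tissue inhibitors of metalloproteinases (TIMPs) were followed in cultured mouse microglia that received extracellular vesicles. Members were all genes whose mouse symbol is Mmp, Adam or Adamts followed by a number, together with Timp1, Timp2, Timp3 and Timp4. This gave 79 of the 48005 gene entries of the counts table, with 23 MMPs, 33 ADAMs, 19 ADAMTS genes and 4 TIMPs. In 2 of these entries the exons of other genes were joined to the member in the counting, namely Adam1a with Gm42878 and Mapkapk5, and Adam34 with Gm35629.

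The EV-treated group held 3 samples of microglia, the resident macrophages of the brain, given extracellular vesicles (EVs), the membrane particles that cells shed, which were spun down from primary neural stem cell cultures of the subventricular zone of CD1 mice. The control group held 3 samples of the same strain given the control treatment, and what that treatment contained is not stated. Dose, exposure time and age of the animals are not stated. The labels do not tell whether replicates were separate cultures, so the p-values here speak only of the variation among these 6 libraries, part of which may be technical. Polyadenylated RNA was sequenced, and the deposited counts summed to 133112063 to 142805303 per EV-treated library and 109744701 to 162544804 per control library.

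These enzymes carry a zinc ion at the active site. MMPs are made as inactive precursors and, secreted or tethered to the membrane, cut collagens, elastin, proteoglycans and cytokines. ADAMs are membrane proteins, and some of them, ADAM10 and ADAM17 above all, clip the outer parts of receptors and cytokines from the cell surface, while the secreted ADAMTS proteases cut proteoglycans and other matrix proteins. TIMPs bind and block the active sites, and in the brain macrophages are one source of both the enzymes and their inhibitors.

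The genes divided by direction. The stromelysins Mmp3 and Mmp10, the collagenases Mmp8 and Mmp13 and the membrane-bound Mmp14 and Mmp25 were higher in EV-treated libraries. So were the aggrecan-cutting Adamts4 and Adamts9, and Timp1. The most abundant MMP and the most abundant TIMP of these cells, Mmp12 and Timp2, were lower. Of the 79 members, 44 had enough counts to be tested with edgeR's quasi-likelihood test (adjusted p under 0.05, Benjamini-Hochberg over all entries), and 18 rose and 11 fell. Among all 16605 entries tested, 33.0% rose, 33.5% fell and 66.5% did either, so the share of members that changed was near that of all entries. The median on the log2 scale was 0.35 over the members tested and -0.02 over all entries tested. In 31 of the 44 members the EV-treated and control libraries did not overlap, against 71.3% of all entries tested.

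**Figure D1:**
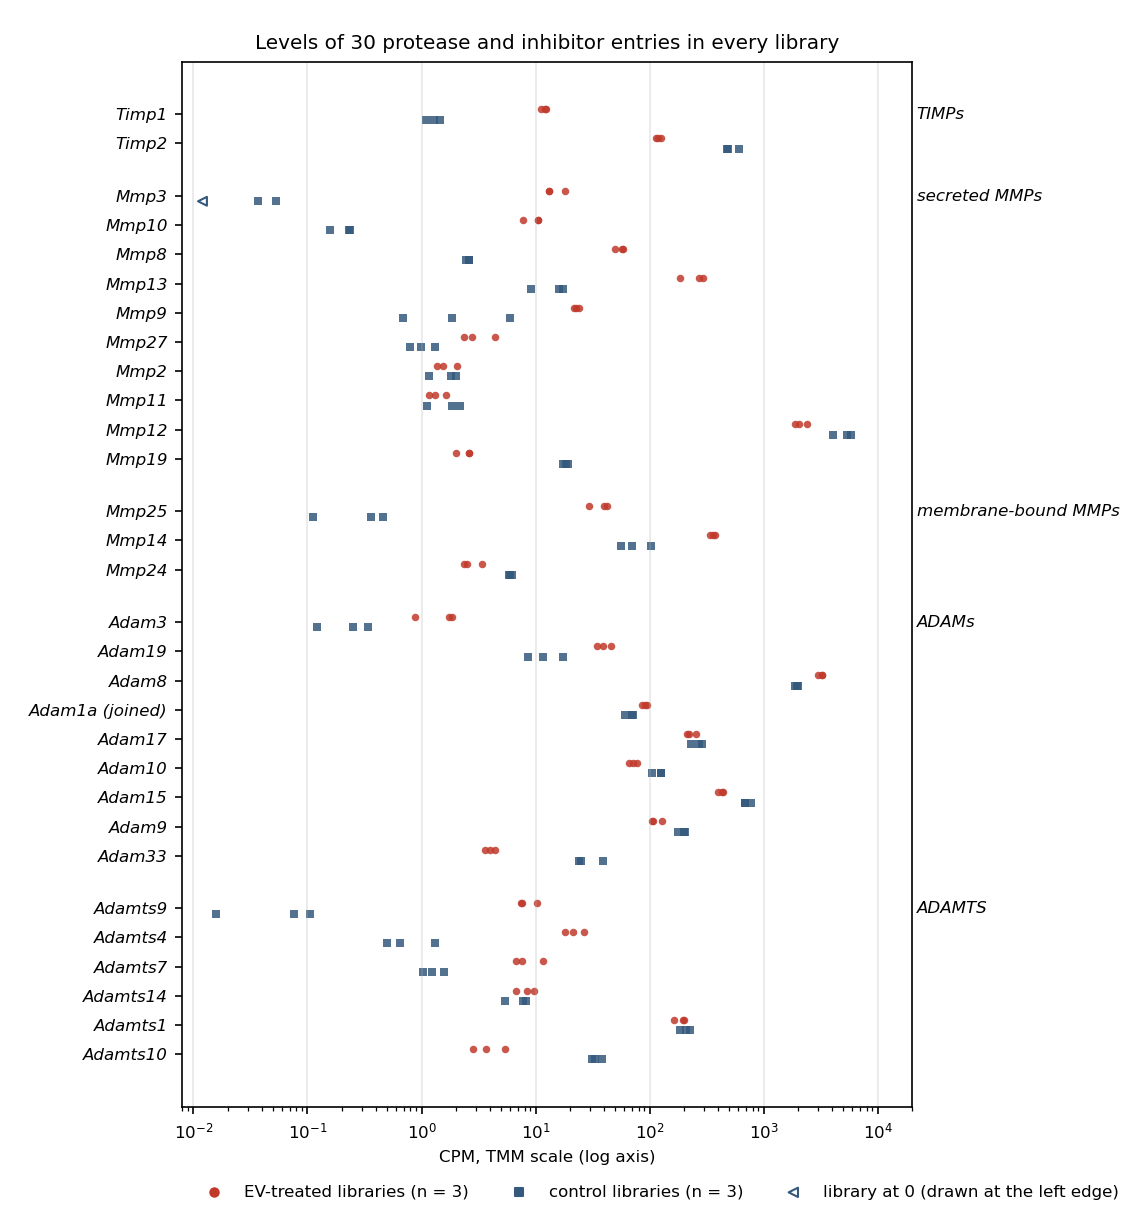
Level of 30 members in every library, in CPM on the TMM scale (log axis), EV-treated libraries in red above control libraries in blue, grouped by class and ordered by fold change. Mmp12 and Adam8 lie highest in both groups, and Mmp3, Mmp25 and Adamts9 lie below 0.5 CPM in every control library.

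Levels below are in CPM, that is, counts per library brought to one total with TMM factors, and fold changes are log2 of EV-treated over control. The median of all entries was -0.38 when library totals alone set the scale and -0.14 with upper-quartile scaling, against -0.02 with TMM. Rises made up 34.0% of all calls with library totals, 44.1% with upper-quartile scaling and 49.7% with TMM.

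The promoter sequences of 4 genes of the stromelysin and collagenase cluster on chromosome 9 are shown first, because 3 of these neighbours rose and 1 fell, together with that of Mmp25, the membrane-bound MMP with the highest rise. Each is the stretch of 120 bases just before a transcription start annotated by RefSeq on GRCm38.p6, read 5′ to 3′ on the gene's strand. In the chromosome 9 genes capitals mark TGANTCA, the palindromic letters of the AP-1 site, and TATAAA on either strand. In Mmp25 they mark matches to the NF-kB site.
Mmp3 (rose; plus strand, chr9:7445702-7445821): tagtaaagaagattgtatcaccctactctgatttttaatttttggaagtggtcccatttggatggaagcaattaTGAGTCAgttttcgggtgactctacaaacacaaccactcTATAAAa
Mmp10 (rose; plus strand, chr9:7502222-7502341): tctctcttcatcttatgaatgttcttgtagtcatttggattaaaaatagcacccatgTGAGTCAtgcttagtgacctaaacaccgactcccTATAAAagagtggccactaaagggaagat
Mmp13 (rose; plus strand, chr9:7272394-7272513): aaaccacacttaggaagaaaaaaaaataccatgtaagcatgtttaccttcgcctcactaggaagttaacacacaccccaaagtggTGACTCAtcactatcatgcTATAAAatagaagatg
Mmp12 (fell; plus strand, chr9:7347254-7347373): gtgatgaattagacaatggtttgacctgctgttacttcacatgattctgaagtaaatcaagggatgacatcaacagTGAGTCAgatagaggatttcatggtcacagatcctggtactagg
Mmp25 (rose; minus strand, chr17:23645270-23645389): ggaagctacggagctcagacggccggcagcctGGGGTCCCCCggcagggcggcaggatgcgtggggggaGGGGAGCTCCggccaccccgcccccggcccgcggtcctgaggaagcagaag

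The AP-1 letters began 46 bases before the start of Mmp3, 63 before that of Mmp10, 35 before that of Mmp13 and 44 before that of Mmp12. They therefore stood in promoters of genes that rose and of the gene that fell. In Mmp25 the NF-kB letters began 88 and 51 bases before the start. RefSeq windows that run from 250 bases before to 50 bases after a start were found for 49 of the 79 members, 54 windows in all. TGANTCA occurred in 13 of these 54 windows (24.1%) and in 7.81% of the 32851 windows of all genes, and the NF-kB letters on either strand occurred in 13.0% and 8.46%. Of the 10 MMP genes in the cluster 8 held TGANTCA in a window, among them 3 that had too few counts to be tested (Mmp1a, Mmp20 and Mmp7). Mmp8 and Mmp27, which rose, did not hold it there. Windows of the cluster made up most of the 13, and the rest belonged to Adam19, Adam1b, Adam20, Adam25 and Adam29. Besides Mmp25, the NF-kB letters stood in windows of Adam19 and Adamts9, which rose. They also stood in those of Adamts13 and of Mmp12, at a start upstream of the one printed, which fell. Windows of Adam1b and Adamts20, which were not tested, held them too.

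Among the inhibitors, the TIMPs moved in opposite directions. Timp1 (ENSMUSG00000001131, GRCm38 chromosome X, 20870166 to 20874735, plus strand), the inducible TIMP, had 11.2, 12.2 and 12.4 CPM in EV-treated libraries, against 1.09, 1.45 and 1.28 CPM in control libraries. Every EV-treated library lay above every control library, and Timp1 rose, by 3.23 on the log2 scale (SE 0.16, adjusted p = 1.22e-07). Timp2 (ENSMUSG00000017466, chromosome 11, 118301069 to 118355740, minus strand) blocks most MMPs and, bound to MMP14, also takes part in the activation of MMP2. It had 119, 127 and 114 CPM in EV-treated libraries, against 609, 481 and 490 CPM in control libraries. All EV-treated libraries were below all control libraries, and Timp2 fell, at -2.13 (SE 0.13, adjusted p = 5.15e-07).

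Because Timp2 supplied most TIMP counts, the summed level of the 4 TIMP genes was 133 ± 6.99 CPM in EV-treated and 529 ± 70.5 CPM in control libraries (SD, n = 3 each). Timp1 made up 9.0% ± 0.677 of TIMP counts in EV-treated and 0.246% ± 0.0622 in control libraries, with no overlap (2-sided exact permutation test, p = 0.1, the smallest that 3 against 3 allows). Fewer cells that express a gene and less of its RNA per cell cannot be told apart in these bulk samples, here and in what follows.

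Timp3, the matrix-bound TIMP that also blocks ADAM17 and aggrecanases, had 0.864, 0.571 and 0.539 CPM in EV-treated libraries, against 0.342, 0.528 and 2.06 CPM in control libraries. The groups overlapped, with control C highest, and the log2 fold change of -0.59 (SE 0.59, adjusted p = 0.4) did not pass. Between 61.2% and 69.6% of its counts lay in a terminal exon that overlaps Syn3 on the other strand. Control C also held the highest summed level of 6 fibroblast and mural cell markers, with 13.8 to 20.2 CPM in EV-treated libraries and 15.0, 18.3 and 41.2 CPM in control A, B and C; the part of these cells in the value of Timp3 was not tested. Timp4 had 0, 7 and 10 counts in EV-treated libraries, against 0, 2 and 0 counts in control libraries, and was not tested.

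The fall of Timp2 was uneven along the transcript. The terminal bin of 2632 bases, annotated as 3′ untranslated region only, had 21.7 ± 0.363 CPM in EV-treated and 221 ± 25.8 CPM in control libraries, a log2 ratio of the means of -3.35. The 6 other bins together had 98.3 ± 6.88 CPM in EV-treated and 305 ± 48.3 CPM in control libraries, a log2 ratio of -1.63 (2-sided exact permutation p = 0.1 for each region, the smallest possible). The terminal bin thus held 18.6%, 17.0% and 18.8% of the gene's counts in EV-treated libraries, against 40.8%, 40.9% and 44.8% in control libraries. In edgeR's test of bin usage its share fell (log2 change of usage -0.84, bin adjusted p = 8.68e-07). The 5′-most bin with counts had 9.17%, 11.8% and 12.3% in EV-treated libraries, against 7.52%, 7.22% and 6.86% in control libraries (log2 change of usage 0.43, bin adjusted p = 0.0109).

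**Figure D2:**
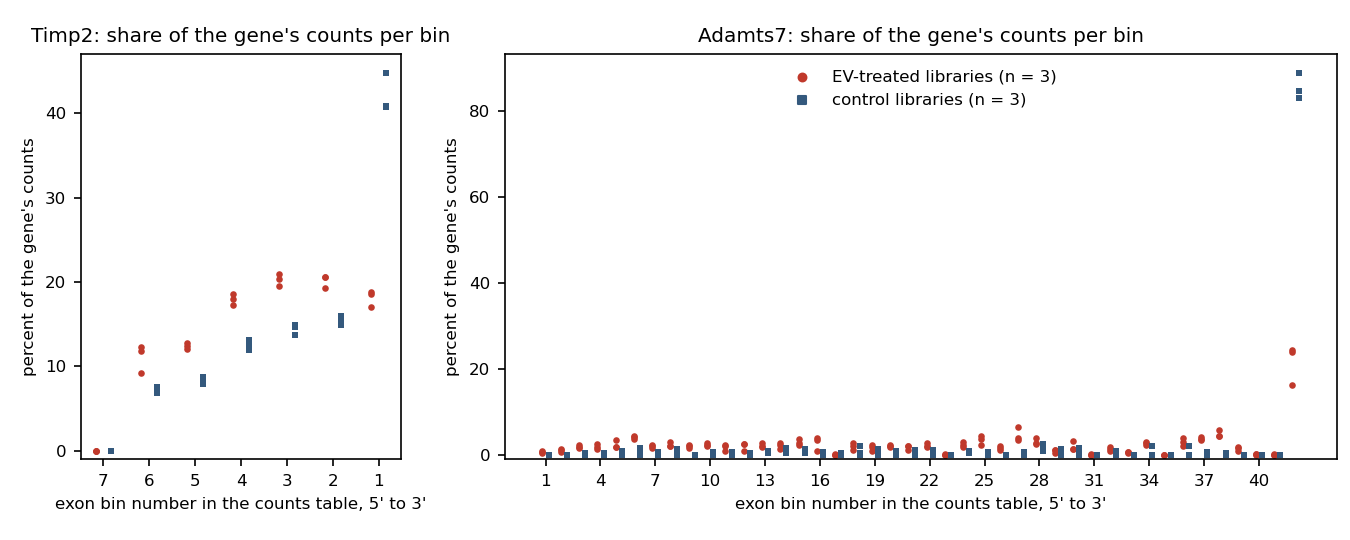
Share of a gene's counts (percent) in each exon bin, 5′ to 3′, for Timp2 and Adamts7, with EV-treated libraries in red left of control libraries in blue. The last Timp2 bin holds 17.0% to 18.8% in EV-treated and 40.8% to 44.8% in control libraries, and the last Adamts7 bin 16.2% to 24.3% and 83.0% to 88.8%.

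Of 12 secreted MMPs tested, 7 rose, 2 fell and 3 did not pass, against 33.0% risen and 33.5% fallen among all entries tested. Stromelysins 1 and 2 cut proteoglycans and activate other MMPs, and Mmp3 and Mmp10, which encode them, had the highest log2 fold changes of this class. Mmp3 (stromelysin-1, ENSMUSG00000043613, chromosome 9, 7445822 to 7455975, plus strand) had 18.1, 13.2 and 13.0 CPM in EV-treated libraries, against 0.0531, 0 and 0.0371 CPM in control libraries. The control values stood for 7, 0 and 7 counts, so the rise of 8.85 (SE 0.41, adjusted p = 8.93e-08) rests on a control level near the detection floor, and it was 7.02 when the largest bin alone was counted. Mmp10 (stromelysin-2) had 10.5, 7.72 and 10.5 CPM in EV-treated libraries, against 0.159, 0.236 and 0.233 CPM in control libraries. It rose by 5.50 (SE 0.23, adjusted p = 4.85e-08).

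The collagenases Mmp8 and Mmp13, which cut fibrillar collagen, rose as well. Mmp8 had 56.9, 57.9 and 50.2 CPM in EV-treated libraries, against 2.63, 2.60 and 2.45 CPM in control libraries. The spread within each group was small beside the difference, and the log2 fold change was 4.42 (SE 0.12, adjusted p = 4.11e-09). Mmp13 had 293, 269 and 186 CPM in EV-treated libraries, against 9.12, 17.4 and 16.2 CPM in control libraries. It rose by 4.13 (SE 0.27, adjusted p = 8.85e-07) and reached 93.4 ± 21.0 CPM per kilobase of exon in EV-treated libraries, with a spread that takes in the mean of Mmp14 (82.8 ± 3.91), and below Mmp12.

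Mmp1b, a mouse relative of interstitial collagenase, stayed far below the others with 12, 12 and 30 counts in EV-treated libraries, against 1, 2 and 2 counts in control libraries. Its log2 fold change was 3.60 (SE 0.67, adjusted p = 0.000984). All of its control counts, and 13.3% to 41.7% of its EV-treated counts, lay in a bin that overlaps the last bin of Mmp12 on the other strand. Its other 9 bins held 9, 7 and 26 counts in EV-treated libraries and 0 in each control library, too few to be tested alone, and with the sex-linked covariate described below the adjusted p was 0.182.

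The gelatinases differed. Mmp9, which cuts basement membrane collagen, had 22.5, 21.8 and 23.9 CPM in EV-treated libraries, against 0.683, 5.91 and 1.85 CPM in control libraries. The control libraries were widely spread, with control B highest, but none reached the EV-treated level. Mmp9 rose by 3.02 (SE 0.59, adjusted p = 0.0013), by 4.12 without control B, and by 3.68 with an adjusted p of 0.056 when the sex-linked covariate was added. Mmp2 had 1.37, 1.54 and 2.05 CPM in EV-treated libraries, against 1.80, 1.17 and 2.01 CPM in control libraries. These overlapped, and the log2 fold change was -0.01 (SE 0.26, adjusted p = 0.981), or -0.85 (adjusted p = 0.0683) for the largest bin alone.

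Mmp12 and Mmp19 were the secreted MMPs that fell. Mmp12, the macrophage elastase (ENSMUSG00000049723, chromosome 9, 7344381 to 7369499, plus strand), had 2381, 2057 and 1900 CPM in EV-treated libraries, against 4017, 5843 and 5382 CPM in control libraries. No EV-treated library reached the lowest control library, and the log2 fold change was -1.27 (SE 0.17, adjusted p = 0.000123). Mmp19 had 2.02, 2.62 and 2.59 CPM in EV-treated libraries, against 18.6, 19.2 and 17.5 CPM in control libraries, and fell, at -2.94 (SE 0.14, adjusted p = 1.28e-07). From 48.9% to 55.7% of Mmp19 counts lay in a last bin that overlaps Tmem198b on the other strand, which itself fell by 2.70, and without that bin the value for Mmp19 was -3.04 (SE 0.15).

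Mmp12 dominated the family in both groups, but less so after EVs. It supplied 73.5% ± 1.29 of all MMP counts in EV-treated and 97.5% ± 0.499 in control libraries (SD, n = 3 each, 2-sided exact permutation p = 0.1, the smallest possible). Mmp14 supplied 12.5% ± 1.80 and 1.50% ± 0.493, and Mmp13 8.63% ± 1.31 and 0.269% ± 0.0413. The summed MMP level was 2870 ± 285 CPM in EV-treated and 5207 ± 956 CPM in control libraries.

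Of the remaining secreted MMPs, Mmp27 had 2.76, 4.41 and 2.35 CPM in EV-treated libraries, against 1.30, 0.985 and 0.796 CPM in control libraries, and rose by 1.63 (SE 0.28, adjusted p = 0.000648), or 2.41 with the sex-linked covariate. Mmp11 (stromelysin-3) had 1.16, 1.32 and 1.65 CPM in EV-treated libraries, against 2.16, 1.84 and 1.12 CPM in control libraries, which overlapped. Its log2 fold change of -0.31 (SE 0.27, adjusted p = 0.343) did not pass and was 0.55 with the sex-linked covariate. Mmp28 stayed under 1 CPM in both groups and did not pass either.

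Of these genes, 7 of those tested lie side by side. The cluster of 10 MMP genes spans 427.1 kb of chromosome 9 (7272514 to 7699585) in the order Mmp13, Mmp12, Mmp1b, Mmp3, Mmp1a, Mmp10, Mmp8, Mmp27, Mmp20 and Mmp7. Mmp13, Mmp1b, Mmp3, Mmp10, Mmp8 and Mmp27 rose, and Mmp12, between Mmp13 and Mmp1b, fell. Mmp1a and Mmp7 had at most 8 counts in any library and Mmp20 had none. On one side Dcun1d5, with 39.8 ± 6.15 CPM in EV-treated and 32.7 ± 2.29 CPM in control libraries, did not pass (log2 fold change 0.28, adjusted p = 0.0739), and Dync2h1 beyond it, with 17.8 ± 4.47 and 5.21 ± 1.66 CPM, rose by 1.77 (SE 0.25, adjusted p = 0.000162). On the other side Tmem123, with 110 ± 6.87 and 63.3 ± 2.26 CPM, rose by 0.80, and Birc3, a gene of the NF-kB response farther along, rose by 3.23. Birc2 between them rose by 0.49. Gm10709 (0.85, adjusted p = 0.168) and Yap1 (0.26, adjusted p = 0.775), both under 1 CPM in both groups, did not pass.

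**Figure D3:**
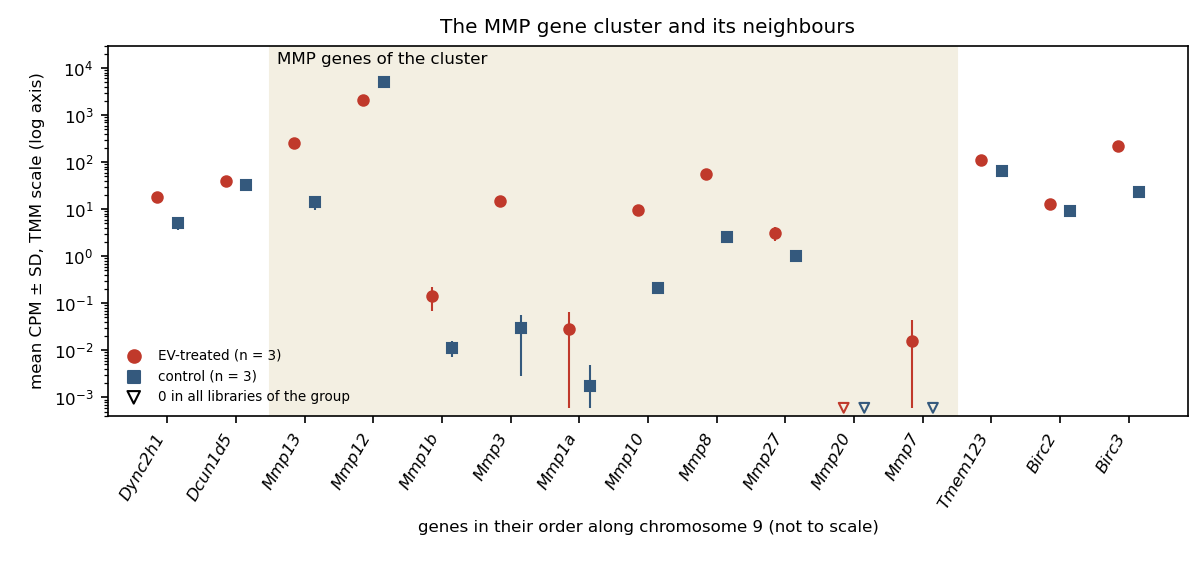
Mean CPM ± SD (log axis, TMM scale, n = 3 each) of the 10 MMP genes of the chromosome 9 cluster (shaded) and of 5 neighbours, in gene order, EV-treated in red left of control in blue. Open triangles mark groups at 0 in all libraries and error bars that reach to 0 end near the lower edge; Mmp12 is the shaded gene whose EV-treated mean, 2112 CPM, lies below its control mean, 5081 CPM.

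Mmp12 was counted from its downstream start. The bins at the upstream start annotated by RefSeq and GENCODE held at most 17 counts in an EV-treated and 62 in a control library, whereas a bin of 85 bases just after the downstream start held 8332 to 10421 counts in EV-treated and 17934 to 33574 in control libraries. Bin usage of Mmp12 changed (adjusted p = 6.36e-11), in bins that hold little of the gene. Bin 25, a stretch of 1573 bases of a 3′ untranslated region of 1 annotated transcript, held 0.0130% ± 0.00513 of Mmp12 counts in EV-treated and 0.0788% ± 0.00817 in control libraries. Bin 8, annotated as retained intron or noncoding transcript, held 0.0261% ± 0.0117 and 0.0747% ± 0.0219.

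Among the 6 membrane-bound MMPs tested, 2 rose and 1 fell (33.0% and 33.5% of all entries tested). Mmp14 (MT1-MMP, chromosome 14, 54431612 to 54441265, plus strand), a collagenase of the cell surface that also activates MMP2, had 339, 357 and 372 CPM in EV-treated libraries, against 69.5, 55.8 and 103 CPM in control libraries. The groups stood far apart, and Mmp14 rose by 2.22 (SE 0.21, adjusted p = 9.05e-06), or 1.48 with the sex-linked covariate. Mmp25 (MT6-MMP, ENSMUSG00000023903, chromosome 17, 23629458 to 23645269, minus strand), a lipid-anchored enzyme known from human neutrophils, had 41.9, 29.7 and 39.8 CPM in EV-treated libraries, against 0.455, 0.362 and 0.111 CPM in control libraries. It rose by 6.96 (SE 0.39, adjusted p = 3.17e-07), or 8.77 with the sex-linked covariate.

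Mmp8, Mmp9 and Mmp25 are all products of neutrophils, and 4 of 5 neutrophil markers, Elane, Ly6g, Mpo and Ngp, averaged under 0.1 CPM in both groups. Elane had no count in any library and Ly6g none in the EV-treated libraries. The exception was Camp, with 0.775, 0.897 and 0.632 CPM in EV-treated libraries, against 0.00759, 0 and 0.0477 CPM in control libraries. Camp rose by 5.12 (SE 0.68, adjusted p = 0.000108). The part of neutrophils in the values of Mmp8, Mmp9 and Mmp25 was not tested.

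Mmp24 (MT5-MMP), an enzyme best known from neurons, had 2.34, 3.42 and 2.51 CPM in EV-treated libraries, against 5.91, 6.19 and 5.82 CPM in control libraries, and fell, at -1.12 (SE 0.17, adjusted p = 0.000309). Between 99.0% and 100% of its counts lay in 1 bin that overlaps BC029722 on the other strand, an entry with a log2 fold change of -1.11. The 10 other bins of Mmp24 held at most 3 counts in any library. Its value therefore cannot be told apart from that of BC029722. Mmp15, Mmp17 and Mmp23 did not pass, and Mmp17 reached 1.12 CPM in control C and at most 0.465 CPM in the other libraries.

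**Figure D4:**
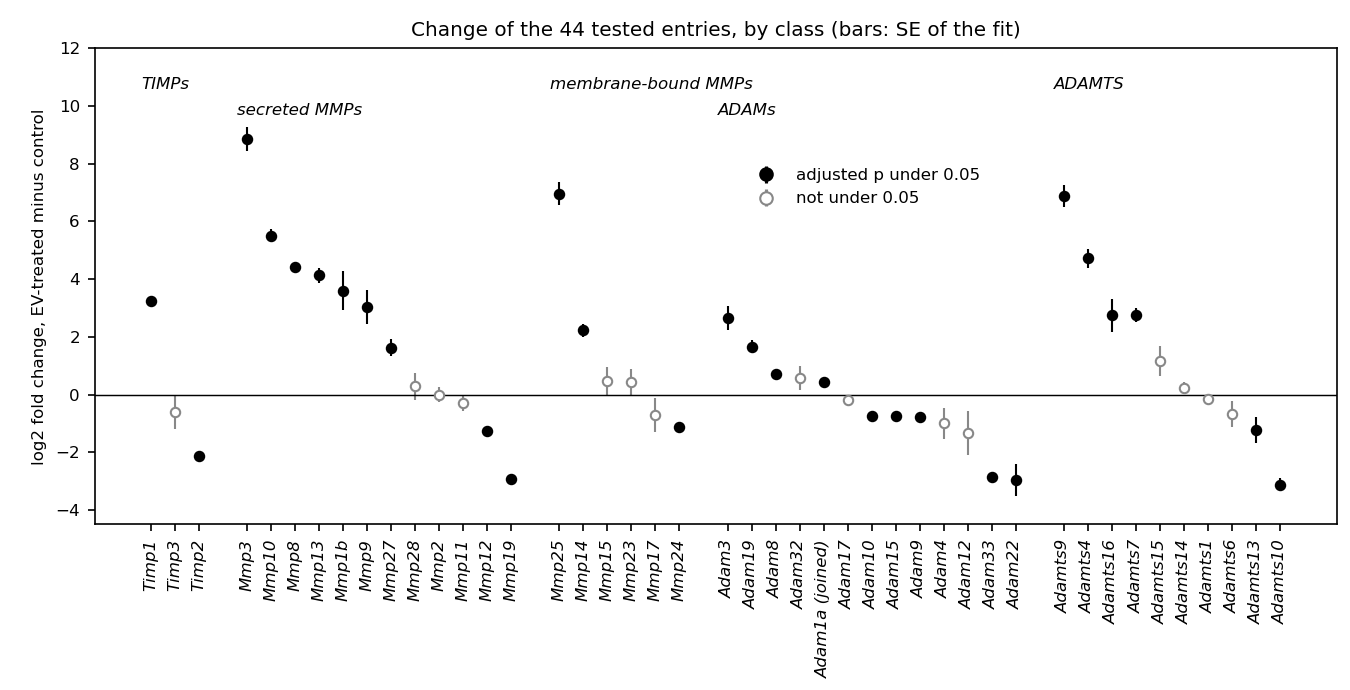
Log2 fold change, EV-treated minus control, of the 44 tested members by class, with the SE of the fit as bars; filled points have an adjusted p under 0.05 and open points do not. Mmp3 at 8.85, Mmp25 at 6.96 and Adamts9 at 6.89 lead the rises, and Adamts10 at -3.12, Adam22 at -2.95 and Mmp19 at -2.94 the falls.

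Of 13 ADAMs tested, 4 rose and 5 fell (33.0% and 33.5% of all entries tested), and 4 did not pass. The median log2 fold change was -0.73. Adam8, a sheddase of leukocytes, was the most abundant ADAM. It had 3232, 2969 and 3279 CPM in EV-treated libraries, against 2011, 1970 and 1868 CPM in control libraries. It rose by 0.70 (SE 0.12, adjusted p = 0.000581) and made up 78.1% ± 0.507 of the counts of single-gene ADAM entries in EV-treated and 59.4% ± 1.88 in control libraries. Per kilobase of all annotated exon bins, Adam8 had the highest level of all members in EV-treated libraries, with 681 ± 36.0 CPM, ahead of Mmp12 with 292 ± 33.9. In control libraries the order was the other way round, with Adam8 at 420 and Mmp12 at 702 CPM per kilobase. The length used for Mmp12, 7237 bases against 4638 for Adam8, takes in bins that held little of its counts. The order over the bins in use was not tested.

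The main sheddases of the cell surface did not rise. Adam10, the alpha-secretase of the amyloid precursor protein, had 71.8, 66.0 and 77.0 CPM in EV-treated libraries, against 126, 104 and 127 CPM in control libraries, and fell, at -0.73 (SE 0.12, adjusted p = 0.000342). Adam17, which releases soluble TNF, had 222, 213 and 253 CPM in EV-treated libraries, against 269, 233 and 290 CPM in control libraries. The groups overlapped, with EV-treated C above control B, and the log2 fold change of -0.20 (SE 0.12, adjusted p = 0.168) did not pass. It was -0.57 (adjusted p = 0.00343) with library totals alone and -0.32 (adjusted p = 0.0406) with upper-quartile scaling.

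Adam9 and Adam15, both with a disintegrin domain that binds integrins, fell by about as much as Adam10. Adam15 had 436, 400 and 435 CPM in EV-treated libraries, against 775, 682 and 685 CPM in control libraries (log2 fold change -0.75, SE 0.11, adjusted p = 0.000237). Adam9 had 107, 104 and 128 CPM in EV-treated libraries, against 201, 176 and 203 CPM in control libraries (log2 fold change -0.77, SE 0.12, adjusted p = 0.000291). In both genes the highest EV-treated library was below the lowest control library.

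Adam33 fell more, with 4.02, 3.60 and 4.43 CPM in EV-treated libraries, against 38.9, 24.9 and 24.1 CPM in control libraries (log2 fold change -2.87, SE 0.20, adjusted p = 1.34e-06). Adam22, an ADAM without protease activity that serves as a receptor at synapses, was under 1 CPM in both groups. Its counts were 2, 13 and 7 in EV-treated libraries, against 61, 55 and 100 in control libraries. The fold change on the log2 scale was -2.95 (SE 0.56, adjusted p = 0.00108), and -3.71 without EV-treated B.

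Adam19, a sheddase of neuregulins, had 34.9, 39.4 and 45.5 CPM in EV-treated libraries, against 11.7, 8.64 and 17.4 CPM in control libraries. It rose by 1.66 (SE 0.23, adjusted p = 0.000137), or 0.81 (adjusted p = 0.0477) with the sex-linked covariate. Bins that overlap the entry Gm16033+Gm16034 on the other strand held 35.4% to 39.4% of its counts, and without them the value was 1.60 (SE 0.24). Adam3, known from sperm, had 0.880, 1.85 and 1.74 CPM in EV-treated libraries, against 0.121, 0.339 and 0.249 CPM in control libraries, and rose by 2.65 (SE 0.42, adjusted p = 0.000354); the adjusted p was 0.0743 with the sex-linked covariate.

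The entry that joins Adam1a with Gm42878 and Mapkapk5 had 91.9, 94.1 and 85.6 CPM in EV-treated libraries, against 70.3, 72.0 and 61.2 CPM in control libraries. It rose by 0.42 (SE 0.10, adjusted p = 0.00547), or 0.05 (adjusted p = 0.686) with library totals alone, and the share of Adam1a in it is not known. Adam4, Adam12 and Adam32 were under 1 CPM in both groups and did not pass.

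The ADAMTS family moved both ways. Among 10 tested there were 4 rises and 2 falls (33.0% and 33.5% of all entries tested), and 4 did not pass. Adamts4, an aggrecanase, had 21.3, 18.2 and 26.6 CPM in EV-treated libraries, against 0.501, 0.646 and 1.31 CPM in control libraries, and rose by 4.72 (SE 0.34, adjusted p = 1.49e-06), or 3.38 with the sex-linked covariate. Adamts9, which cuts versican and aggrecan (ENSMUSG00000030022, chromosome 6, 92772699 to 92943492, minus strand), had 7.61, 7.50 and 10.2 CPM in EV-treated libraries, against 0.0759, 0.0158 and 0.106 CPM in control libraries. It rose by 6.89 (SE 0.38, adjusted p = 2.8e-07), or 5.66 with the covariate. The control values stood for 10, 2 and 20 counts, so the size of this rise rests on a control level near the detection floor.

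Adamts1, a protease of versican, supplied most ADAMTS counts in both groups, 78.2% ± 2.38 in EV-treated and 82.1% ± 1.90 in control libraries. It had 195, 165 and 199 CPM in EV-treated libraries, against 208, 224 and 185 CPM in control libraries, which overlapped. The log2 fold change of -0.14 (SE 0.12, adjusted p = 0.317) did not pass, and it was -0.51 (adjusted p = 0.00572) with library totals alone and 0.05 with the sex-linked covariate. Adamts14, which processes procollagen, had 8.46, 6.72 and 9.74 CPM in EV-treated libraries, against 8.29, 7.78 and 5.40 CPM in control libraries (log2 fold change 0.22, SE 0.20, adjusted p = 0.35). That value was -0.14 with library totals alone, and 0.70 (adjusted p = 0.00978) for its largest bin.

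Adamts10, a protease tied to fibrillin microfibrils, had the lowest log2 fold change of the 44 members tested. It had 2.81, 3.71 and 5.36 CPM in EV-treated libraries, against 38.6, 31.2 and 33.3 CPM in control libraries, which gave -3.12 (SE 0.22, adjusted p = 1.48e-06). At low levels, Adamts16 rose by 2.75 (SE 0.57, adjusted p = 0.00192), on 13 to 15 counts in EV-treated and 2 or 3 counts in control libraries, or by 3.64 (adjusted p = 0.0487) with the sex-linked covariate. Adamts13, which cuts von Willebrand factor, had 10, 16 and 28 counts in EV-treated libraries, against 56, 34 and 64 counts in control libraries. Its log2 fold change of -1.22 had an adjusted p of 0.0352, which became 0.101 with EV-treated A left out, 0.0725 with EV-treated B, 0.125 with control A and 0.067 with control C left out, and 0.224 with the sex-linked covariate.

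Adamts7, a protease of cartilage oligomeric matrix protein, had 7.56, 6.80 and 11.6 CPM in EV-treated libraries, against 1.02, 1.24 and 1.59 CPM in control libraries, and rose by 2.75 (SE 0.25, adjusted p = 7.99e-06). Most of the control value came from its last bin (chromosome 9, 90207717 to 90208071), where Adamts7 and Tbc1d2b overlap on opposite strands. That bin held 24.3%, 24.0% and 16.2% of Adamts7 counts in EV-treated libraries, against 88.8%, 84.7% and 83.0% in control libraries. For Adamts7 it held 228, 186 and 240 counts in EV-treated libraries, against 119, 133 and 249 in control libraries. The overlapping Tbc1d2b bin held nearly the same, 228, 176 and 232 counts in EV-treated libraries, against 119, 131 and 244 in control libraries. The 41 other bins of Adamts7 held 709, 588 and 1241 counts in EV-treated libraries, against 15, 24 and 51 counts in control libraries. Without the overlapping bin the log2 fold change was 5.12 (SE 0.37, adjusted p = 1.2e-06). For the largest bin alone, which is the overlapping bin itself, it was 0.78. With the sex-linked covariate and all bins it was 1.96.

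This overlap of strands bears on all members with antisense neighbours. Of 14 pairs of bins with the same span on opposite strands and with counts, all 14 had identical counts in all 6 libraries, so the counting did not separate strands. When every bin that overlaps another entry was left out, 27 of the 29 calls among members were kept, and Mmp1b and Mmp24 had too few counts to be tested.

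Bin usage within genes was tested for 29 members and changed in 5 (Mmp12, Adamts7, Timp2, Adam17 and Adam9), against 19.7% of 11324 genes tested. In Adam17 the bin with the smallest p was its last 8 bases, which overlap Iah1 on the other strand. A bin of Adam17 annotated as retained intron held 0.438% ± 0.0935 of the gene's counts in EV-treated and 0.213% ± 0.0667 in control libraries (log2 change of usage 0.70, bin adjusted p = 0.00115). In Adam9 a bin of 42 bases at the 3′ end held 0.165% ± 0.0714 and 0.0351% ± 0.00889 (log2 change of usage 1.50, bin adjusted p = 0.000254), and Adam9 was not called without EV-treated B. With bins of at least 50 counts on average, Mmp12, Timp2 and Adam17 were called among 22 members.

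The remaining 35 members did not pass the filter on low counts and were not tested. The highest single count among them was 20, for Adamts8 in EV-treated libraries. Adam6a, Adam20, Adam26a, Adam39, Mmp20 and the entry of Adam34 had no count in any library, where a count of 0 allows up to 3 counts, or 0.0159 to 0.0264 CPM per library; this covers counting error only.

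Genes that help, anchor or restrain these proteases changed both ways. Of 36 partners and regulators, 26 were tested, and 11 rose and 10 fell, where 33.0% and 33.5% of all entries tested did. The median log2 fold change was -0.14. Lcn2, whose product binds MMP9, had 195, 280 and 190 CPM in EV-treated libraries, against 0.676, 1.05 and 0.637 CPM in control libraries, and rose by 8.15 (SE 0.27). Bsg, the extracellular matrix metalloproteinase inducer, averaged 1877 ± 102 CPM in EV-treated and 383 ± 48.6 CPM in control libraries and rose by 2.29 (SE 0.14). Plau, the urokinase that starts the plasmin cascade upstream of MMP activation, had 64.1, 62.1 and 65.7 CPM in EV-treated libraries, against 1335, 987 and 1394 CPM in control libraries. It fell, at -4.28 (SE 0.17, adjusted p = 3.05e-08). Reck, a membrane-anchored MMP inhibitor, averaged 0.781 ± 0.349 and 1.80 ± 0.224 CPM and fell, at -1.20 (SE 0.34, adjusted p = 0.00989).

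Among the tetraspanins that escort ADAM10, Tspan5 rose by 1.52 (124 ± 7.52 CPM in EV-treated and 43.3 ± 2.61 CPM in control libraries), whereas Tspan14 (26.5 ± 0.984 and 87.4 ± 7.99 CPM) and Tspan17 (27.5 ± 2.31 and 104 ± 7.90 CPM) fell, at -1.72 and -1.92. Rhbdf2, which encodes iRhom2, the carrier of ADAM17 to the cell surface, had 133, 112 and 151 CPM in EV-treated libraries, against 86.9, 76.4 and 77.9 CPM in control libraries. The groups did not overlap, and Rhbdf2 rose by 0.71 (SE 0.13, adjusted p = 0.000757). Rhbdf1 and Frmd8, also partners of ADAM17 on this list, fell. Their log2 fold changes were -0.55 (SE 0.15, adjusted p = 0.00795) and -0.67 (SE 0.10, adjusted p = 0.000272).

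Of 38 proteins known to be shed by ADAM10 or ADAM17, 32 had transcripts that could be tested. Of these 17 rose and 9 fell (33.0% and 33.5% of all entries tested), with a median of 0.55. Tnf, the best known cargo of ADAM17, had 153, 115 and 152 CPM in EV-treated libraries, against 9.63, 13.1 and 12.5 CPM in control libraries (log2 fold change 3.57). The transcripts of Sdc4 (3.65), a proteoglycan of the cell surface, and of the TNF receptor gene Tnfrsf1b (2.45) rose as well. Il6ra (-3.31), the receptor of interleukin 6, and the phagocytic receptor genes Mertk (-4.32) and Trem2 (-3.54) fell. Il6ra averaged 3.55 ± 0.205 CPM in EV-treated and 35.3 ± 3.42 CPM in control libraries.

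Of 30 genes of matrix proteins that MMPs or ADAMTS proteases cut, 24 were tested. Of these 9 rose and 6 fell (33.0% and 33.5% of all entries tested), with a median of 0.15. The versican gene Vcan, cut by ADAMTS1, ADAMTS4 and ADAMTS9, had 1.70, 1.63 and 1.69 CPM in EV-treated libraries, against 0.182, 0.252 and 0.393 CPM in control libraries, and rose by 2.58 (SE 0.31). Col5a1, a fibrillar collagen gene, averaged 45.4 ± 17.6 and 4.45 ± 1.95 CPM (3.34) and the thrombospondin gene Thbs1 47.0 ± 11.4 and 4.85 ± 1.65 CPM (3.27). The fibronectin gene Fn1 averaged 204 ± 84.7 CPM in EV-treated and 1059 ± 422 CPM in control libraries and fell, at -2.38 (SE 0.36). The basement membrane gene Nid2 (-2.04) and the entry of the osteopontin gene Spp1 joined with Gm42793 (-2.03) fell as well.

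The libraries also differed in other ways. The log2 ratio of Y-linked to Xist counts was -5.51 to -4.86 in EV-treated and -3.86 to -1.35 in control libraries, which do not overlap, and each library held counts of both kinds. With this ratio as a covariate 15 members rose and 13 fell. Because the ratio does not overlap between the groups, this fit cannot fully separate it from EV treatment. That limit holds for every value given here with the sex-linked covariate. The summed level of 10 microglia markers was 2954 to 3134 CPM in EV-treated and 4498 to 5955 CPM in control libraries, with 1 of 10 risen and 6 fallen. Csf1r, the receptor that microglia need to live, had 884, 692 and 846 CPM in EV-treated libraries, against 789, 736 and 801 CPM in control libraries, which overlapped. The sum of 6 astrocyte markers was 88.1 to 123 CPM in EV-treated and 10.9 to 15.5 CPM in control libraries, carried in the EV-treated group by Slc1a2 and Gja1. The entry of Aldh1l1 joined with Gm45901 went the other way, with 1.72 ± 0.635 CPM in EV-treated and 13.4 ± 2.43 CPM in control libraries (-2.96). Gfap, Aqp4 and S100b averaged under 0.1 CPM in both groups. Sums for neural stem cell markers were 2.20 to 3.40 and 45.9 to 82.7 CPM, almost all from Nes. The sum of 8 oligodendrocyte lineage markers was 30.6 to 43.8 CPM in EV-treated and 213 to 440 CPM in control libraries. Cspg4 was the largest part of the control sum, and Mog, Olig1 and Olig2 were under 0.1 CPM in both groups. Cspg4 (-3.58) and Mbp (-2.07) fell, and the entry of Pdgfra joined with Mir7025 rose (3.45). For 5 endothelial markers it was 43.3 to 48.3 CPM in EV-treated and 77.1 to 174 CPM in control libraries, with 3 risen, 1 fallen (Flt1) and Cldn5 under 0.1 CPM in both groups. The part of other cells in the values of the members was not tested.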

How the data were processed

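The deposited values are raw counts per exon bin, whole numbers in files that also list position, strand, length and gene of every bin, per the file headers. Trimmomatic 0.36, STAR, Subread and DESeq2 and the build GRCm38 are listed in the submitters' processing notes; settings: not given in the sources used here. A read that spans several bins may be counted in each.

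Bins were added up per entry, filterByExpr removed low entries, TMM set the library scale, and edgeR 4.0.16 under R 4.3.3 compared EV-treated with control libraries (glmQLFit, glmQLFTest, no covariate). An SE is the size of the log2 fold change over the square root of its F. Bin usage was tested with diffSpliceDGE on entries of single genes (Simes, bins of at least 10 counts on average). Both tests were checked on simulated data. The 5 neighbours of the MMP cluster in the figure were a fixed list of genes near it, which left out the tested entries Gm10709 and Yap1. Members named with values in every library passed the filter and averaged at least 1 CPM in a group, or changed below that level. Timp3 and Timp4 were added after their values were seen. For each list up to 3 rises and 3 falls with the smallest p, and Tnf, Lcn2, Reck and Rhbdf2, were named. Rhbdf1 and Frmd8 were likewise added after their values were seen. Members and lists were chosen with earlier results of these data known. Replicate letters were not used to pair the samples in the main fit. Deviations of libraries with the same letter had correlations of 0.04, 0.17 and 0.21, which cannot tell whether cultures were shared. The numbers in the deposited column names do not follow the letters alike in the groups, and pairing by those numbers was not tested. Alternatives were RLE, upper-quartile and total scaling, no filter, a stricter one (50 counts or more in 3 libraries or more), limma-voom 3.58.1, DESeq2 1.42.0, the replicate block, each library left out, a sex-linked covariate (Y-linked over Xist counts), the largest bin alone, joined entries left out, a log2 change of at least 1, and, added after seeing the data, bins shared with another entry left out. Promoters came from a RefSeq table. Figures used matplotlib 3.10.9.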

Additional observations from a re-analysis of the deposited data

How the results depend on the processing

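Over 18 alternatives to the fit, 15 to 21 members rose and 10 to 13 fell, against 18 and 11, and each library left out gave 18 to 19 rises and 10 to 11 falls. With a log2 change of at least 1 as well, 16 rose and 8 fell. All 29 calls were kept with RLE scaling, DESeq2, limma-voom, no filter and the replicate block. The replicate block gave 19 rises, 11 falls and 7 members with changed bin usage, and no call among members was lost. Over all entries 11037 calls became 7271 with the sex-linked covariate, 6650 with a log2 change of at least 1, and 10190 to 10918 with a library left out. Members with changed bin usage numbered 5, but 3 with bins of at least 50 counts and 4 to 7 with a library left out; leaving out joined entries there changes nothing, since none was in that test. Values that turned sign had not passed the test. Mmp2, at -0.01, was 0.02 with RLE scaling, the stricter filter or DESeq2, 0.01 with the replicate block, -0.23 to 0.13 with a library left out, -0.56 with the sex-linked covariate and -0.85 for the largest bin alone. Adamts14, at 0.22, was -0.14 with library totals alone, and with the sex-linked covariate Adamts1 was 0.05 and Mmp11 was 0.55. In all, 579 of 603 values of 34 members kept their sign and side of the threshold. The cause of the other changes was not tested. With 3 libraries a group, members under 1 CPM rest on few counts.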
